A study of Homo sapiens with 24 samples.

Results

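The cytosolic ribosomal proteins are the proteins that, with ribosomal RNA, build the small and the large subunit of the ribosome outside mitochondria. Their genes were taken from the tables by name, as every RPL or RPS gene name followed by a number, with RPLP0, RPLP1, RPLP2 and RPSA and without the RPS6 kinases. This gave 81 of the 14411 gene names listed in any table, of which 49 belong to the large and 32 to the small subunit. All 81 were listed in each of the 3 tables, and all 81 passed the filter on low counts in each line. Among them are 5 paralogs, RPL7L1, RPL22L1, RPL26L1, RPL39L and RPS27L, each a close relative of a canonical ribosomal protein. RPL21 was not analysed here, and FAU, RPL36AL and GNB2L1 (RACK1) lie outside the name rule and are given only for comparison.

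RNA was sequenced from Panc-1, an established human pancreatic ductal adenocarcinoma line, after integration of a Tet-One plasmid in which doxycycline (Dox) switches on the inserted gene. Tet-MIST1 carried rat MIST1-myc and Tet-PTF1a carried mouse PTF1a-myc, the myc-tagged coding sequences of transcription factors of the pancreatic acinar cell, and Tet-One carried the empty plasmid. Each line was a clone picked after puromycin selection, so that a property of the clone and an effect of the plasmid cannot be told apart between lines. Cells of passage 32 (Tet-One and Tet-PTF1a) or 33 (Tet-MIST1) grew for 72 h without Dox (Control) or with 1 µg/ml Dox, with 4 biological replicates in each of the 6 groups, which gave 24 libraries of polyadenylated RNA. P-values thus measure the spread between replicates of 1 clone. The comparison of Dox with Control within a line asks what the induced factor changed, and Tet-One gives the change with Dox alone.

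Libraries held 17210989 to 43018494 counts. Dox replicate 1 of Tet-One and, less so, Dox replicate 1 of Tet-MIST1 stood apart, with higher counts on short genes. The main results on the members are given with and without these libraries, and other values with all libraries. Human PTF1A was at 0.0389 ± 0.0262 (SD, n = 4) CPM (counts scaled to library size) in Tet-PTF1a Control and 5.07 ± 1.76 CPM in Tet-PTF1a Dox (log2 change 6.76 ± 0.56 SE, FDR = 1.32e-05). These are counts on the human locus and no measure of the mouse transgene. Whether reads of the transgene add to them was not tested. All 9 markers of the Panc-1 epithelium were listed. Of 14 markers of blood, endothelial and stromal cells 2 were, CD68 (65.4 CPM in Tet-PTF1a Control and 33.3 in Dox, 257 and 213 in Tet-MIST1) and PDGFRB (at most 1.57 CPM on average in any group), and their part in the results was not tested.

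Ribosomal protein genes are among the most strongly transcribed genes of a growing cell, and the subunits need most of their proteins in equal numbers. Their mRNAs typically begin with a terminal oligopyrimidine (TOP) tract, a C followed by a run of C and T, through which mTORC1 and LARP1 set their translation together. Rates of ribosome production follow growth through MYC and RNA polymerase I, and unassembled ribosomal proteins such as RPL5 and RPL11 bind MDM2, the ubiquitin ligase of p53.

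The start sites show how much of this group shares a start sequence. RefSeq promoters (build GRCh38.p14, 250 bases before to 50 after the start site) were matched by symbol for 65 of the 81 genes. A C at the start site followed by at least 4 pyrimidines was present in 42 of these 65 (64.6%), against 4.04% of all 27305 RefSeq promoters. It was in 25 of 40 genes of the large and 17 of 25 of the small subunit. The remaining 23 genes lacked it, and 15 of the 65 had none within 5 bases of the start. Windows of 30 bases, 10 before and 20 from the start site, are given for members on which the results below turn, read 5′ to 3′ on the strand of the gene, with the pyrimidine run nearest the start in capitals. The first of them carry the tract, and all but RPS27, shown as the partner of RPS27L, were called in Tet-MIST1 or Tet-PTF1a.
RPL26, chr17:8383174-8383203, minus strand: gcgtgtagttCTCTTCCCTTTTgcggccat
RPS16, chr19:39435930-39435959, minus strand: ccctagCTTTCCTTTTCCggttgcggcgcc
RPLP0, chr12:120201092-120201121, minus strand: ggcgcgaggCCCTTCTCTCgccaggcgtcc
RPLP1, chr15:69452808-69452837, plus strand: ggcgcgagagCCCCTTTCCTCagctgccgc
RPLP2, chr11:809957-809986, plus strand: tcggcgCCTTCCTTTTCCTCCCTgtcgcca
RPL28, chr19:55385922-55385951, plus strand: cctcgCCTTCCTCTTTCCgtctcaggtcgc
RPL35A, chr3:197950180-197950209, plus strand: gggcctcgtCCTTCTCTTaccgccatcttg
RPS24, chr10:78033853-78033882, plus strand: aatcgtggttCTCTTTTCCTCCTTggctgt
RPS27, chr1:153990752-153990781, plus strand: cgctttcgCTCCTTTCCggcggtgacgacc

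Most paralogs with a promoter lacked the tract, as did canonical members such as RPS4X and RPS15, which were called and are not shown. The windows of paralogs are given because RPS27L had the largest rise and RPL7L1 the only called fall in Tet-MIST1. Of the 4 paralogs with a promoter, only RPL22L1 had a pyrimidine tract at the start site, and RPS27L had none within 5 bases of it, whereas its canonical partner RPS27 did.
RPS27L, chr15:63157458-63157487, minus strand: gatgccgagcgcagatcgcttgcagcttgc
RPL7L1, chr6:42879606-42879635, plus strand: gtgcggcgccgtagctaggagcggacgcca
RPL26L1, chr5:172958719-172958748, plus strand: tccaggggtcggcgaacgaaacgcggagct
RPL22L1, chr3:170870176-170870205, minus strand: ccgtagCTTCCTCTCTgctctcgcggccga

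Sequence motifs of the whole promoters were counted on both strands. The E-box CAGCTG, of the kind bound by basic helix-loop-helix factors such as PTF1a and MIST1, was in 5 of 65 member promoters (7.69%) and in 17.7% of all promoters, and the general E-box CANNTG, which includes CAGCTG, was in 41.5% and 68.9%. The ETS-type motif CCGGAAG was in 35.4% of member promoters and 10.7% of all, and AAGATGG, part of the YY1 motif, in 12.3% and 6.06%. The GC box GGGCGG was in 53.8% and 44.6%, TATAAA in 6 of 65 and 3264 of 27305, and TGGGAAA, the RBPJ motif that forms the other part of the PTF1 site, in 10.8% and 7.88%. In Tet-PTF1a, CAGCTG was in 0 of 8 promoters of induced members, 3 of 20 of repressed members and 2 of 37 of the rest, and the TOP start was in 4 of 8, 16 of 20 and 22 of 37. A match is a description of these letters only.

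Without Dox, the 81 genes together took 5.75 to 5.99% of all counts in Tet-One Control, 5.74 to 6.17% in Tet-MIST1 Control and 4.08 to 4.17% in Tet-PTF1a Control. Tet-One and Tet-MIST1 overlapped, and Tet-PTF1a lay below both in every library. Levels per length are given as RPKM, the counts scaled to the library total only, per kilobase of listed exon. The median member was at 577.7 RPKM in Tet-One Control, 549.9 in Tet-MIST1 Control and 432 in Tet-PTF1a Control. Between members the range was wide. RPS16, whose tail reaches the tRNA in the P site of the small subunit, was the highest in each line, at 18396 ± 408, 21164 ± 805 and 9267 ± 131 RPKM (SD, n = 4). Its distance from the next member was large in every line, and whether counting or annotation adds to it was not tested, although only 8.38% of its 50-base exon stretches occur again in the genome. The next in Tet-One Control were RPLP1 (2396 ± 125), RPLP0 (1997 ± 55.4), RPS2 (1902 ± 83.7) and RPLP2 (1812 ± 121). The means of RPLP0 and RPS2, and of RPS2 and RPLP2, lay within the sum of their SDs, and RPLP1 stood above them. The proteins RPLP0, RPLP1 and RPLP2 form the stalk of the large subunit that calls in the elongation factors.

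**Figure D1:**
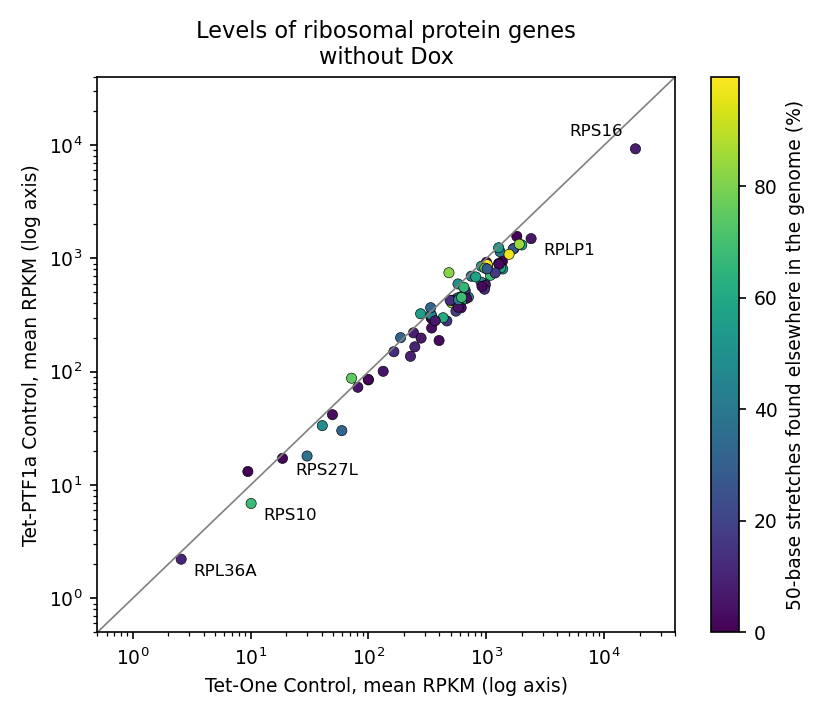
Mean level of ribosomal protein genes in Tet-One Control (x axis) and Tet-PTF1a Control (y axis), in RPKM on log axes, 1 point per gene, coloured by the percentage of its 50-base exon stretches that occur again in the genome. RPS16 lies alone at the top right (18396 and 9267 RPKM), RPL36A is at the lower left (2.58 and 2.21 RPKM), and most genes lie a little under the line of equality.

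Among the lowest members in Tet-One Control were RPL36A (2.58 ± 0.262 RPKM), RPL22L1 (9.48 ± 0.448), RPS10 (10.1 ± 1.60) and RPS27L (18.6 ± 1.08). Of these, RPL22L1 and RPS27L are paralogs with few repeated sequences (0.34% and 1.58% of the 50-base stretches of their exons occur again in GRCh37). Exons of RPL36A and RPS10 lie inside annotated readthrough genes on the same strand (RPL36A-HNRNPH2 and RPS10-NUDT3), as do those of RPL17, which was among the lowest in Tet-MIST1 Control (14.0 ± 0.507 RPKM). How reads that match several places or several genes were counted is not given in the sources used here, so these low levels are uncertain. Repeats touched the whole group, from 0% in RPL11 and RPL38 to, for example, 99.6% in RPL7, and 24 members had at least 50% of their stretches repeated. RPS18 was listed over haplotype copies, so that its level per length, which enters the medians above, is uncertain.

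No ribosomal protein gene was called with Dox alone, in Tet-One. None of the 81 passed the edgeR quasi-likelihood test at FDR under 0.05 (percent of all 13428 genes called higher: 0; called lower: 0), and none reached an unadjusted p under 0.05, against 401 of all genes. The lowest adjusted p was 0.897, and DESeq2 and the likelihood ratio test also called 0. Yet 79 of 81 had a positive log2 change, with a median of 0.20 (all genes tested, 0.00), and this sign depended on a single library. The members took 9.69% of the counts in Dox replicate 1 and 5.63, 5.73 and 5.62% in replicates 2, 3 and 4, which lay below all 4 Control libraries. In bulk RNA fewer cells with a transcript and less of it per cell cannot be told apart. RPS16 was at 10802, 10920, 10304 and 10994 CPM in Control and at 21376 in Dox replicate 1, but at 10200.3, 10309 and 10168 CPM in the other Dox libraries. RPL7L1 went the other way, at 54.9 CPM in Dox replicate 1 and 85.4 to 93.1 CPM in the other 7 libraries.

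Without Dox replicate 1, 72 of 81 members in Tet-One had a negative log2 change, the median was -0.08, and again none was called (all genes called higher, 0%, and lower, 0.00746%). In the 3 remaining Dox libraries 26 members lay below all Control libraries and 0 above them, where 5.03% of all genes lay below and 6.04% above. With all 4 Dox libraries, all 81 overlapped (all genes, 1.35% above and 1.06% below). The shift was shared with other short genes. The 731 other genes with under 1000 bases of listed exon had a median change of 0.19 in Tet-One and the 50 members of that length 0.22, and without Dox replicate 1 these were -0.04 and -0.07. From 1000 to under 2000 bases, 19 members had a median of 0.19 and 2407 other genes 0.12, and from 2000 to under 4000 bases 8 members had 0.15 and 5280 other genes 0.02. At 4000 bases or more, 4 members had 0.25 and 4929 other genes -0.07. The listed length adds up the exons of all isoforms and can exceed that of the transcript. The cause of the shift was not tested.

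**Figure D2:**
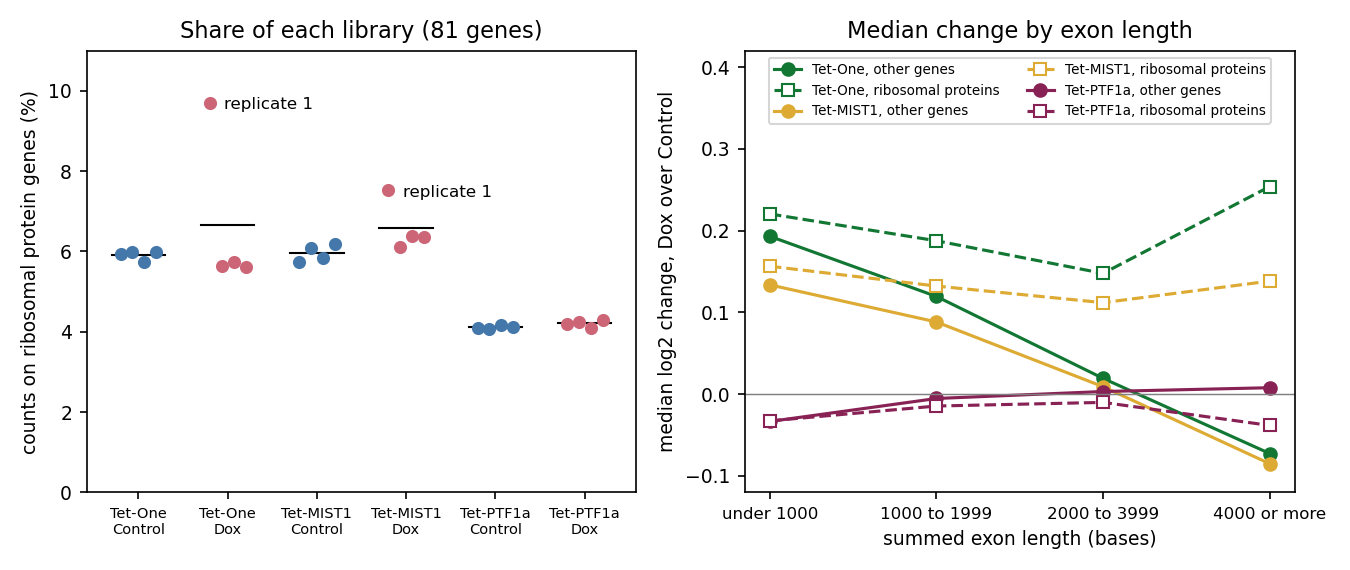
Left, the percentage of each library's counts on the 81 ribosomal protein genes, 1 point per library in the 6 groups, with the group mean as a bar. Right, the median log2 change with Dox of other genes (filled circles) and of ribosomal protein genes (open squares) by summed exon length. Dox replicate 1 of Tet-One (9.69%) and of Tet-MIST1 (7.52%) lie above all other libraries, and in these lines the medians of other genes fall from short to long genes (0.19 to -0.07 and 0.13 to -0.08).

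RPS27L was the ribosomal protein gene that changed most in Tet-MIST1. RPS27L, a paralog of RPS27 known as a p53 target that binds MDM2, was at 32.1, 34.8, 33.5 and 35.9 CPM in Tet-MIST1 Control and at 82.8, 66.4, 75.9 and 66.6 CPM in Tet-MIST1 Dox. The groups did not overlap, and the range within each was smaller than the gap between them. The log2 change was 1.10 ± 0.07 (SE, FDR = 2.57e-06), an increase of 114%, and without Dox replicate 1 it was 1.03 ± 0.05 (FDR = 5.3e-13). It was called in all 10 alternative fits and in each of the 8 fits that left out 1 library. Its canonical partner RPS27, which had 97.0% of its 50-base stretches repeated, was at 518 to 550.4 CPM in Control and 518 to 666 CPM in Dox, with a log2 change of 0.08 (FDR = 0.436).

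In the other lines RPS27L stayed near its Control level. It was at 18.8 to 21.1 CPM in Tet-One Control and at 29.5, 18.4, 20.8 and 19.3 CPM in Tet-One Dox, where only the first library stood out. In Tet-PTF1a it was at 17.4 to 19.6 CPM in Control and, in Dox, at 18.8, 17.3, 19.98 and 18.8 CPM (log2 change -0.02, FDR = 0.802). The difference between the responses of Tet-MIST1 and Tet-One was 0.95 on the log2 scale (interaction, FDR = 0.0074) and that between Tet-PTF1a and Tet-MIST1 was -1.10 (FDR = 2.29e-08). RPS27L lies on chromosome 15 at 63445539 to 63449741 (GRCh37, minus strand, 4 exons), with no other listed gene over its exons. Before Dox, RPS27L was already higher in Tet-MIST1 than in Tet-One, by 0.76 on the log2 scale of levels per length.

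RPL7L1, a paralog of RPL7, was the only member called lower in Tet-MIST1. It was at 118, 106, 116 and 105 CPM in Control and at 90.3, 101, 94.1 and 93.8 CPM in Dox, every Dox library being below every Control library. Its log2 change was -0.23 ± 0.05 (FDR = 0.0138), and -0.20 without Dox replicate 1 (FDR = 0.0025). It was not called without Control replicate 1 or 3. RPL7 itself was at 865 to 963 CPM in Control and 955 to 1173 in Dox (log2 change 0.18, FDR = 0.0816). As 75.5% of the 50-base stretches of RPL7L1 and 99.6% of those of RPL7 are repeated, the split of reads between gene copies is uncertain for both.

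With all libraries, the other 7 members called in Tet-MIST1 rose by 14.1 to 25.6%. RPL35A, mutated in Diamond-Blackfan anaemia, was at 534, 593, 555 and 602 CPM in Control and at 854, 619, 712 and 684 CPM in Dox (log2 change 0.33 ± 0.08, FDR = 0.0187). RPS4X, a small-subunit protein encoded on the X chromosome, was at 1203, 1294, 1224 and 1244 CPM in Control and at 1674, 1375, 1490.3 and 1431 CPM in Dox (0.27 ± 0.06, FDR = 0.0106). For both, Dox replicate 1 was the highest library, and the remaining 3 still lay above all Control libraries. Among the others were RPS24 (0.27, FDR = 0.0179) of the small subunit, and RPL39L (0.22, FDR = 0.0338), RPL7A (0.20, FDR = 0.0357) and RPL29 (0.19, FDR = 0.0299) of the large subunit. Without Dox replicate 1 the log2 changes were smaller, at 0.24 for RPL35A, 0.21 for RPS4X and 0.20 for RPS24. For RPL39L the value was then 0.16, and for RPL7A and RPL29 it was 0.14, and all of these were still called. RPL39L is a paralog of RPL39, which lines the exit tunnel of the nascent chain.

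In all, 8 of 81 members were called higher and 1 lower in Tet-MIST1, where 11.9% and 8.77% of 13623 genes were. In 14 members the Dox libraries were all above Control and in 1 all below (all genes, 14.1% and 12.9%). The share of induced members was near that of all genes. Their median log2 change was 0.15 (all genes, 0.00), and 79 of 81 were positive. Members under 1000 bases of exon had a median of 0.16 and other genes of that length 0.13. From 1000 to under 2000 bases the medians were 0.13 and 0.09, and from 2000 to under 4000 bases 0.11 and 0.01, while at 4000 bases or more 4 members had 0.14 and 4991 other genes -0.08. Without Dox replicate 1 the median was 0.06, 12 members were called higher and 1 lower (all genes, 14.3% and 11.3%), and again 14 lay above all Control libraries and 1 below (all genes, 16.6% and 14.9%). All 9 calls were kept, and RPL38, RPS15, RPS15A and RPS16 were added. With the fit over all 24 libraries RPS27L alone was called. RPS4X lost its call in that fit only, while the other calls were each lost in at least 2 of 10 alternatives and without 2 or more single libraries. Leaving out 1 library gave between 2 and 34 induced members, the highest number without Dox replicate 2 and 2 without Control replicate 1 or 3 (4 without Control replicate 2 or Dox replicate 4).

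**Figure D3:**
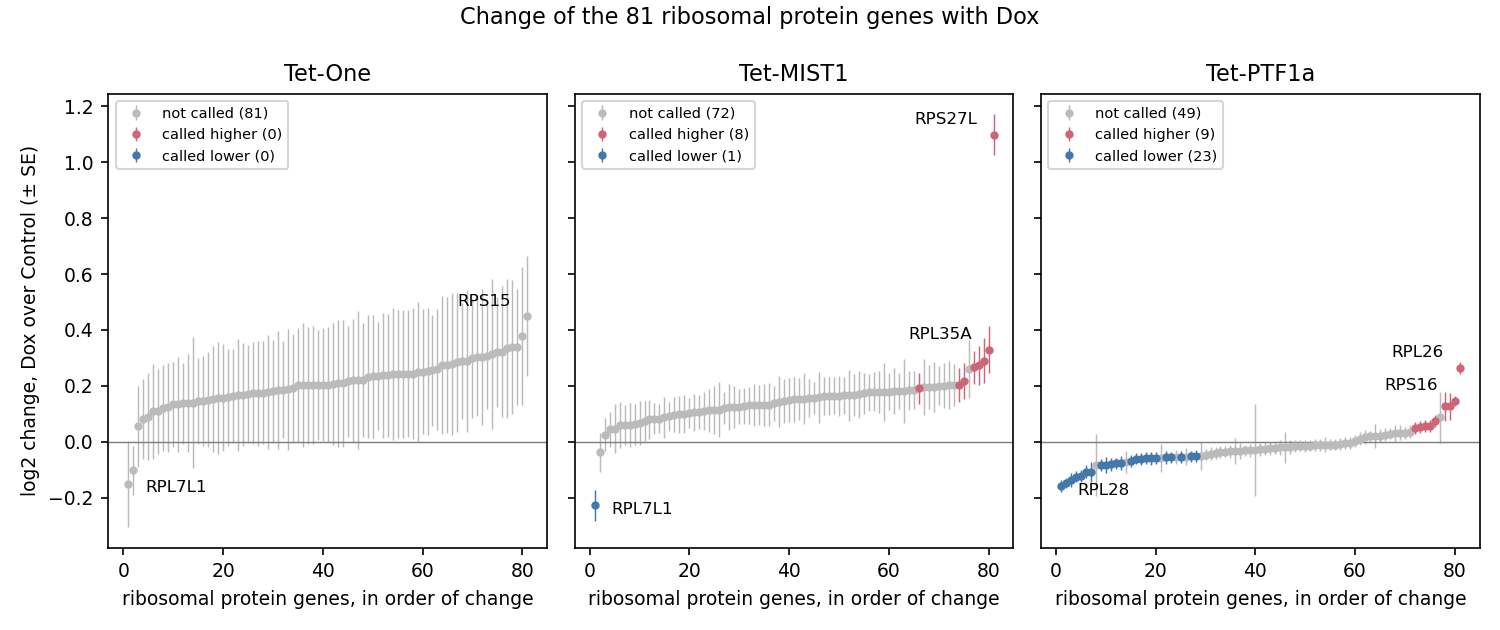
Log2 change with Dox of each of the 81 ribosomal protein genes in each line, in order of change, with the SE as bars and called genes (FDR under 0.05) in colour. In Tet-One 0 are called and the bars are wide, in Tet-MIST1 RPS27L lies alone at 1.10, and in Tet-PTF1a 80 of 81 lie within 0.2 of 0 with RPL26 at 0.26.

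In Tet-PTF1a a smaller share of ribosomal protein genes than of all genes was called, with very small changes. There 32 of 81 members (39.5%) were called, 9 higher and 23 lower, where 23.8% of 14053 genes were called higher and 24.4% lower. The share called higher was thus well below that of all genes, and the share called lower was near it. Yet 70 of 81 changed by at most 0.1 on the log2 scale and 80 by at most 0.2, and the median absolute change was 0.042, against 0.124 over all genes. Their median change was -0.03 and their SEs were small (median 0.022), so that a difference of a few percent could pass. In 4 members the Dox libraries were all above Control and in 17 all below (all genes, 20.8% and 21.4%). Their share of counts was 4.10 to 4.30% in Dox, which overlapped that of Control.

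RPL26 changed most. This large-subunit protein, which binds MDM2 and the mRNA of p53, was at 408, 402, 419 and 414 CPM in Tet-PTF1a Control and at 503, 487, 487 and 495 CPM in Dox. The exons of RPL26 overlap those of another annotated gene on the same strand. The increase was 20.1%, with non-overlapping groups (log2 change 0.26 ± 0.02, FDR = 2.26e-15). RPS16 rose by 10.7%, from 5603, 5435, 5601 and 5512 CPM to 6012, 6252, 5951 and 6311 CPM (0.15 ± 0.02, FDR = 1.62e-09). The remaining called members of the higher group rose by at most 9.26%. They were RPL22L1 (0.13, FDR = 0.0254), RPL26L1 (0.13, FDR = 0.0355), RPL10 (0.07, FDR = 0.0022), RPS9, RPL11, RPS20 and RPS7 (the last 4 at 0.05 to 0.06). Of the bases of RPL10, 42.7% also lie in DNASE1L1 on the other strand, and reads of the pair may not be told apart. The Dox libraries of RPL10 and RPS9 lay above all Control libraries and the others overlapped.

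The repressed members fell by at most 10.4%. RPL28 was at 439, 450.5, 462 and 444 CPM in Control and 399, 413, 392 and 403 CPM in Dox (-0.16 ± 0.02, FDR = 2.44e-08). All 3 stalk proteins were called lower. RPLP0 was at 1662, 1662, 1692 and 1714 CPM in Control and 1491, 1543, 1499.8 and 1544 CPM in Dox (-0.15 ± 0.02, FDR = 4.03e-09). RPLP2 was at 771 to 799 CPM in Control and 697 to 732 CPM in Dox (-0.12 ± 0.02, FDR = 1.01e-06). RPLP1 was at 762 to 786 CPM in Control and 721 to 754 CPM in Dox (-0.06 ± 0.02, FDR = 0.011), a call lost in 4 of 10 alternatives (library size, the likelihood ratio test, all 24 libraries, and length and GC trend removed) and without Dox replicate 3. In each of the 3 the Dox libraries lay below all Control libraries. Next to them RPS21 (-0.14, FDR = 7.9e-06) and RPL7A (-0.12, FDR = 1.04e-06) were lower, again without overlap, and RPSA, the small-subunit protein also known as the laminin receptor, did not pass the test (-0.01, FDR = 0.61). Against Tet-One without its Dox replicate 1, the interaction was called for RPL28 (-0.17, FDR = 0.011) and RPLP2 (-0.15, FDR = 0.043). It was not called for RPLP0 (-0.08, FDR = 0.13), RPLP1 (-0.02, FDR = 0.84), RPS21 (-0.06, FDR = 0.40) or RPL7A (-0.06, FDR = 0.25).

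**Figure D4:**
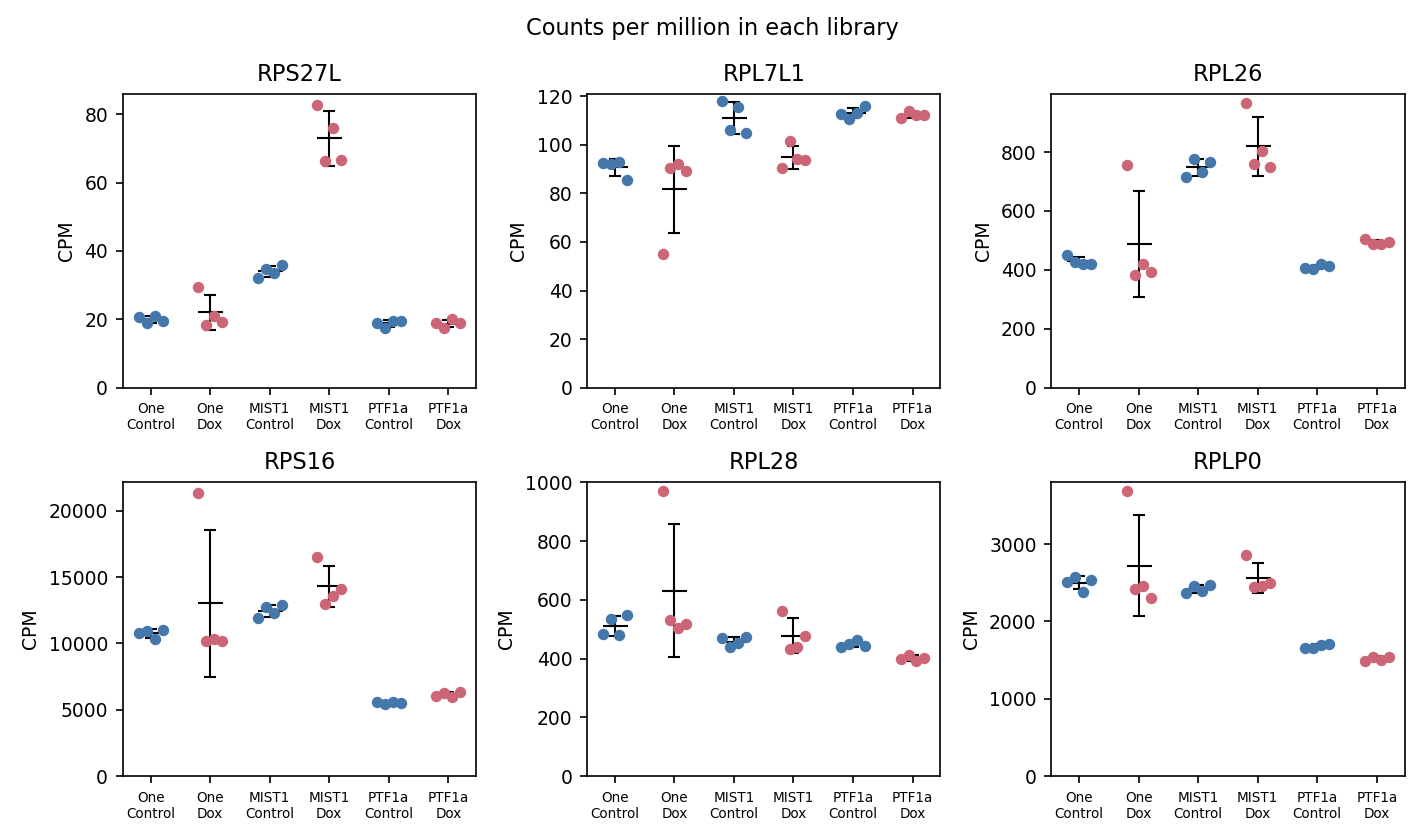
CPM of RPS27L, RPL7L1, RPL26, RPS16, RPL28 and RPLP0 in each library (Control blue, Dox red), with the mean and SD of each group of 4. RPS27L rises in Tet-MIST1 (34.1 to 72.9 CPM), RPL26 and RPS16 rise and RPL28 and RPLP0 fall slightly in Tet-PTF1a, and Dox replicate 1 stands apart in Tet-One.

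How many members were called in each direction changed with the scaling. With library size in place of TMM, which moved the median of all genes by 0.04, 16 members were called higher and 6 lower in Tet-PTF1a, against 9 and 23. The fit over all 24 libraries called 0. RPL26, RPS16, RPL10, RPL28, RPLP0, RPS21, RPLP2 and RPL7A were called in the same direction in 9 of 10 alternatives and in all 8 fits without 1 library.

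Paralogs were set beside their canonical partners. In Tet-PTF1a RPL22L1, a paralog of RPL22, rose while RPL22 fell (-0.08, FDR = 0.000786). RPL22L1 was at 25.9, 25.9, 26.6 and 26.2 CPM in Control and at 30.4, 27.5, 25.7 and 30.2 CPM in Dox, so that 1 Dox library lay below Control, and without Dox replicate 1 or 4 it was not called (log2 change 0.10 and 0.09). RPL26L1, at 22.5 to 25.5 CPM in Control and 24.9 to 28.8 CPM in Dox, moved in the same direction as RPL26. As 48.9% of the 50-base stretches of RPL26L1 and 40.4% of those of RPL26 are repeated, the split of reads between gene copies is uncertain. The call of RPL26L1 was lost with DESeq2, with all 24 libraries in one fit, and without Control replicate 2 or 3 or Dox replicate 4. In Tet-MIST1 RPL22L1 was at 25.9 to 30.3 CPM in Control and 27.6 to 40.8 CPM in Dox (0.26, FDR = 0.0922) and RPL26L1 at 43.9 to 47.4 and 40.3 to 51.0 CPM (-0.04, FDR = 0.727). RPL39 did not pass in either line (0.16, FDR = 0.116, in Tet-MIST1 and 0.04, FDR = 0.193, in Tet-PTF1a), nor did RPL39L in Tet-PTF1a (-0.03, FDR = 0.584).

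Among the 10 proteins listed as binding MDM2, RPS27L alone was called in Tet-MIST1, and RPL26, RPL11 and RPS7 rose in Tet-PTF1a while none fell. Of the 18 listed genes of Diamond-Blackfan anaemia, an inherited failure of red cell production, RPL35A and RPS24 rose in Tet-MIST1. In Tet-PTF1a RPL26, RPL11 and RPS7 rose, and RPS28 (-0.11, FDR = 0.0179), RPS24 (-0.07, FDR = 0.0061) and RPL35A (-0.05, FDR = 0.0428) fell. Several of these calls were weak: RPL35A was called in 3 of 10 alternatives and 2 of 8 fits without 1 library, RPS7 in 5 and 2, RPS28 in 7 and 4, and RPL11 in 8 and 4. These counts stand beside 23.8% of all genes called higher and 24.4% lower in Tet-PTF1a, and 11.9% and 8.77% in Tet-MIST1. RPL36AL and GNB2L1 fell in Tet-PTF1a (-0.09, FDR = 0.0159, and -0.08, FDR = 0.00068), and FAU (0.01, FDR = 0.66) did not pass. In Tet-MIST1 RPL36AL rose (0.25, FDR = 0.0367).

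The responses of the lines were then compared with each other. Between Tet-PTF1a and Tet-MIST1, 20 members had a smaller and 1 a larger change in Tet-PTF1a (all 13521 genes, 18.6% and 17.8%). Among the most negative differences were those of RPS27L (-1.10), RPL35A (-0.37, FDR = 0.0048), RPS24 (-0.33, FDR = 0.0022) and RPL7A (-0.31, FDR = 0.00085), and RPL7L1 was the member with the larger change (0.23, FDR = 0.0044). RPLP0 was also among the 20 (-0.22, FDR = 0.0076). Without Dox replicate 1 of Tet-MIST1 the numbers were 24 and 3 (all genes, 20.6% and 20.2%), RPL26 and RPL26L1 joining RPL7L1. With the trend on exon length and GC content removed they were 9 and 10.

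Against Tet-One, whose libraries both comparisons share, RPS27L was the single member with a larger change in Tet-MIST1 and none had a smaller one (all 13879 genes, 1.48% and 0.187%). For Tet-PTF1a the numbers were 0 and 0 (all genes, 5.52% and 7.33%), with 1 member at an unadjusted p under 0.05. These counts changed without Dox replicate 1. When Dox replicate 1 of both lines was left out, 20 members had a larger and 1 a smaller change in Tet-MIST1 than in Tet-One (all genes, 8.25% and 7.71%), led by RPS27L (1.06 ± 0.08, FDR = 3.11e-09) and RPL35A (0.34 ± 0.07, FDR = 0.00085). In Tet-PTF1a, without that library of Tet-One, 14 had a larger and 3 a smaller change (all genes, 14.6% and 16.1%). RPL26 (0.38 ± 0.04, FDR = 7.57e-08) and RPS16 (0.23 ± 0.04, FDR = 1.73e-05) led the 14, and RPS15, RPL28 and RPLP2 were the 3. In these fits the members' median change in Tet-One was itself -0.08.

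Genes that make, load and drive ribosomes were compared in the same way. In Tet-PTF1a, of 83 ribosome biogenesis factors, which process rRNA and assemble the subunits, 40 rose and 5 fell, with a median of 0.07. RPF1 rose from 95.4 to 129 CPM (0.44 ± 0.03, FDR = 6.69e-19), and SBDS, which releases EIF6 from the new large subunit, rose from 84.2 to 110.0 CPM (0.39 ± 0.03, FDR = 5.52e-16). Of 15 genes of RNA polymerase I and its cofactors 8 rose and 2 fell. TWISTNB, a polymerase subunit, rose (0.43 ± 0.03, FDR = 3.85e-16) and UBTF, the factor that opens the rDNA, fell (-0.29 ± 0.02, FDR = 2.34e-14). Of 34 initiation factors 12 rose and 4 fell, EIF5 with the largest change (0.59 ± 0.09, FDR = 0.0016).

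The elongation factors went the other way. Of 8, 6 fell and 0 rose in Tet-PTF1a, with EEF1A1, which brings aminoacyl-tRNA to the ribosome, from 11279 to 9656 CPM (-0.22 ± 0.02, FDR = 3.49e-16) and EEF1B2, its exchange factor, from 351 to 312 CPM (-0.17 ± 0.02, FDR = 7.8e-09). Of 23 other TOP mRNAs, a list that shares 5 genes with the elongation factors, 10 fell and 3 rose, GAS5 among the latter (0.16 ± 0.03, FDR = 0.000146). Among 24 regulators of mTORC1 and MYC 5 rose and 10 fell, with MYC at 106 ± 1.17 CPM in Control and 97.5 ± 2.40 in Dox (-0.12, FDR = 0.000295) and the mTORC1 inhibitor DDIT4 at -0.68 (FDR = 0.000321). Mitochondrial ribosomal proteins, which serve a separate ribosome, were split at 9 higher and 10 lower of 76, and nuclear-encoded subunits of oxidative phosphorylation at 2 higher and 32 lower of 75 (median -0.06). All counts are to be read against the 23.8% and 24.4% of all genes. Some were far lower in the fit over all 24 libraries, which called 10 biogenesis factors higher, 1 elongation factor lower and 0 other TOP mRNAs lower. With library size in place of TMM these were 51, 4 and 3.

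**Figure D5:**
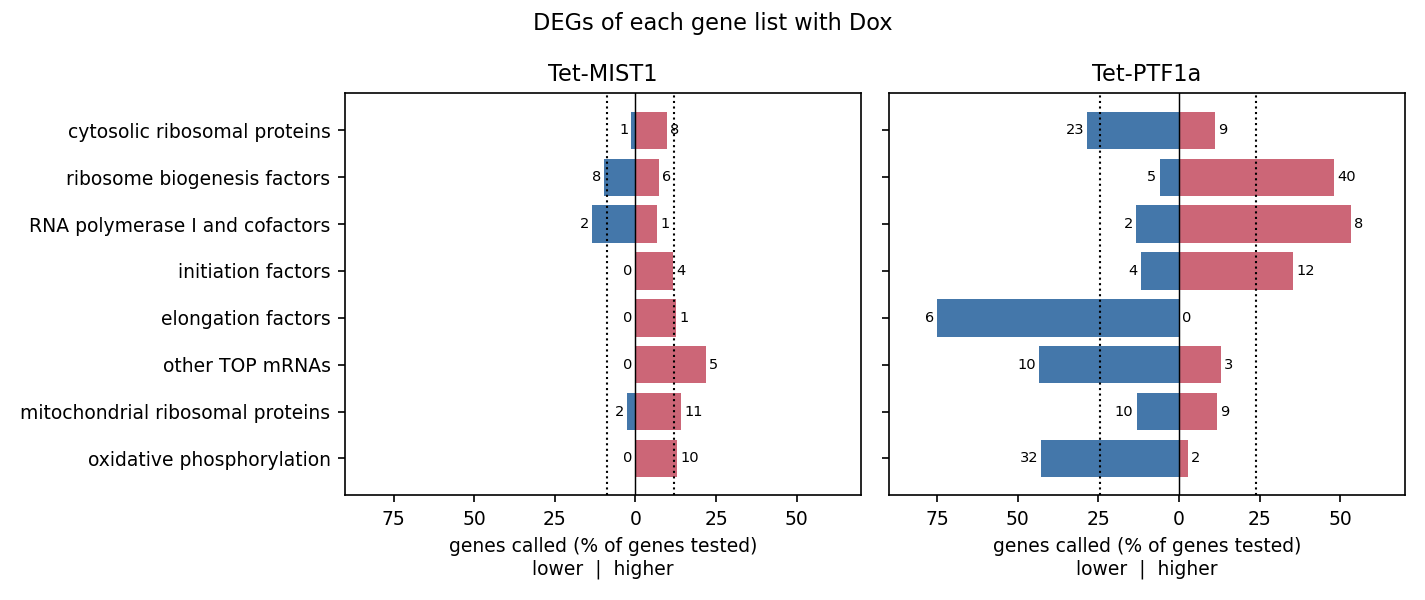
Percentage of the genes of each list called higher (red, right) or lower (blue, left) with Dox in Tet-MIST1 and Tet-PTF1a, with the number of genes beside each bar and dotted lines at the percentages of all genes (11.9% and 8.77%, 23.8% and 24.4%). In Tet-PTF1a ribosome biogenesis factors lie to the right (40 against 5) and elongation factors to the left (6 against 0), with the cytosolic ribosomal proteins at 9 and 23.

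In Tet-MIST1 fewer genes of these lists were called, as were fewer of all genes (11.9% higher and 8.77% lower). Ribosome biogenesis factors were at 6 higher and 8 lower of 83, RNA polymerase I at 1 and 2 of 15, and elongation factors at 1 and 0 of 8. Initiation factors were at 4 higher and 0 lower of 34, with EIF2B4 (0.49 ± 0.06, FDR = 0.000213) and EIF3J (0.47 ± 0.06, FDR = 0.000245) leading. Of 23 other TOP mRNAs 5 rose and 0 fell, among them EPB41L4A-AS1 (0.63 ± 0.07, FDR = 0.000108) and the snoRNA host genes SNHG5, SNHG6 and SNHG8 (0.28 to 0.32). Mitochondrial ribosomal proteins were at 11 higher and 2 lower of 77 and oxidative phosphorylation at 10 and 0 of 77. These counts depended on single libraries. With 1 library left out, 1 to 15 biogenesis factors were called higher and 3 to 11 lower. Initiation factors called higher were then 3 to 11, and other TOP mRNAs called higher 1 to 12. Among the regulators MXD3, a partner of MAX that opposes MYC, rose from 16.6 to 28.9 CPM (0.81 ± 0.06, FDR = 1.01e-05), while MYC itself did not pass (-0.05, FDR = 0.415). In Tet-One 0 genes of any of these lists were called, and ribosomal protein pseudogenes had 0 calls in every line (11 or 12 tested).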

How the data were processed

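Polyadenylated RNA of 24 Panc-1 libraries was sequenced as paired ends, and per the paper's methods the authors aligned reads to hg19 with TopHat. The submitters' processing notes also name HTSeq, DESeq and edgeR. Which tool counted, its use of strand and its treatment of reads with several matches are not given in the sources used here. The authors deposited counts per gene, without normalization, with the summed exon length, and each table also holds their own CPM values and their comparison of Dox with Control, neither of which was used.

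Members and lists were chosen with earlier results of these data known. Within each line, Dox and Control were compared with edgeR 4.0.16 (quasi-likelihood F-test, robust, TMM factors, R 4.3.3). The deposited tables already hold only genes above a minimum, and genes above 0.5 CPM in at least 4 of 8 libraries were tested. P-values were adjusted by Benjamini-Hochberg over all genes tested, and FDR under 0.05 was called. SEs are the log2 change over the root of the F statistic. Differences between lines were tested as an interaction over 16 libraries. CPM values are TMM-scaled. RPKM divides the counts by the library total, without TMM factors, and by the listed exon length. Depth was 17210989 to 43018494 counts. No pair of replicates differed by less than sampling noise (36 pairs, chi-square per degree of freedom 1.39 to 238).

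Members named are the 5 called with the largest change in each direction and line, the stalk proteins, RPSA, paralogs with their partners, the 5 highest and lowest per length, the 5 largest called differences between lines in each direction, and examples from the lists. For other lists, up to 4 called genes with the largest change are named. MYC, RPL29, RPL38, RPS15, RPS15A, RPS9 and RPS20 were named after their values were seen. Alternatives were other scalings, a likelihood ratio test, DESeq2 1.42.0, other filters, a replicate block, all 24 libraries in one fit, removal of trends on length and GC content, and each library left out. The fits were tested on simulated counts with changes larger than most called here and with no deviating library. That test does not cover small changes or a library that stands apart. Replicate numbers did not pair the samples. Repeats of 50-base stretches were counted in GRCh37 and overlaps in GENCODE v44lift37. Start-site windows are from RefSeq. Proteins were not analysed here, and results for a few genes are not reported here.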

Additional observations from a re-analysis of the deposited data

Results flagged for a closer look

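In Tet-One Dox, replicate 1 had 9.69% of its counts on the ribosomal protein genes, far from the other 3 libraries. Of 12 named members, 11 had this library as an outlier: RPS16 at 21376 CPM, RPLP0 at 3694, RPLP1 at 2451, RPLP2 at 1891, RPSA at 1308, RPL28 at 972, RPL26 at 755, RPL39L at 67.0, RPL26L1 at 45.4 and RPL22L1 at 34.0 CPM were the highest of their group, and RPL7L1 at 54.9 CPM was the lowest. Another 3 single libraries stood apart: Tet-One Control replicate 3 with 5.75% of counts on the members, Tet-One Control replicate 4 with RPL7L1 at 85.4 CPM, and Tet-MIST1 Dox replicate 1 with RPLP0 at 2857 CPM. Of 90 groups of 4 libraries examined, 15 were so marked. Chance marks about 1 in 20 of independent groups, but the members share their libraries and most marks came from Tet-One Dox replicate 1. The count is thus no measure of an excess over chance.

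The responses of lines differed by a test of the interaction for 1 member (larger) in Tet-MIST1 against Tet-One, RPS27L by 0.95 on the log2 scale, and for 20 members with a smaller and 1 with a larger change in Tet-PTF1a against Tet-MIST1. Among these, the named differences were -1.10 for RPS27L, -0.37 for RPL35A, -0.33 for RPS24, -0.31 for RPL7A, -0.22 for RPLP0 and 0.23 for RPL7L1.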

How the results depend on the processing

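In Tet-MIST1, 8 members were called higher and 1 lower. The likelihood ratio test called 13 higher. The fit with all 24 libraries called 1 higher and 0 lower, and removal of the length and GC trend called 4 lower and gave a median change of 0.034. Leaving out 1 library gave 2 to 34 higher, 0 to 1 lower and a median of 0.06 to 0.20. In Tet-PTF1a (9 higher, 23 lower), library size in place of TMM gave 16 and 6 and turned the median from -0.03 to 0.010. The likelihood ratio test gave 5 and 13, DESeq2 5 higher, the fit with all 24 libraries 0 and 0, and removal of the length and GC trend 17 and 10 with a median of -0.0050. Leaving out 1 library gave 3 to 11 higher and 10 to 30 lower. The lowest of these were without Dox replicate 4 (3 higher) and Dox replicate 3 (10 lower), and 5 were higher without Control replicate 4. In Tet-One every setting called 0, and the median ranged from -0.08 to 0.30 with 1 library left out. The cause of these changes was not tested.

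For differences between lines, Tet-MIST1 against Tet-One (1 larger, 0 smaller) gave 1 smaller with the length and GC trend removed, 20 and 1 with Dox replicate 1 of both lines left out, an alternative chosen after seeing the data, and 1 to 18 and 0 to 1 with 1 library left out, the highest without Tet-One Dox replicate 1. Tet-PTF1a against Tet-One (0 and 0) gave 1 larger with the trend removed and 0 to 14 and 0 to 3 with 1 library left out, again highest without that library. Tet-PTF1a against Tet-MIST1 (1 and 20) gave 12 smaller with library size, 10 and 9 with the trend removed, and 1 to 3 and 11 to 42 with 1 library left out, the extremes being without Tet-MIST1 Control replicate 3 (11) and Dox replicate 2 (42).

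The replicate block was tried although same-numbered libraries did not deviate together (correlations from -0.44 to 0.39). With the replicate block, Tet-MIST1 had 2 members called higher and 0 lower, and Tet-PTF1a against Tet-MIST1 had 11 with a smaller change. Of 134 summary values under other settings, 108 stayed within a set margin of the main value and 26 moved beyond it. The margin was a fixed ratio for counts and the SD between libraries for medians. Of 806 values of named genes and lists, 744 kept their call, or lack of one, or stayed within the margin. A further 25 list counts moved. Over genes and settings 33 calls were lost and 4 gained, some genes counting more than once, and 0 called genes changed sign. Changes of sign in genes not called were not counted. The median SE of a member's log2 change was 0.21 for Tet-One, 0.07 for Tet-MIST1 and 0.02 for Tet-PTF1a. With all libraries, changes of the size called in Tet-PTF1a were thus not detectable in Tet-One. Without Dox replicate 1 the SEs in Tet-One were smaller, for example 0.042 for RPL26, 0.036 for RPS16 and 0.047 for RPL28. These lie well below the largest change called in Tet-PTF1a (RPL26, 0.26). Other changes called there were nearer to these SEs, for example -0.06 for RPLP1 and -0.05 for RPL35A. Again no member was called in Tet-One, where the median change was then -0.08, but changes of that size could have been missed.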
